A study of Mus musculus with 12 samples.

Results

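Apolipoproteins are the protein parts of the particles that carry cholesterol and triglyceride through the blood. The 10 apolipoprotein genes described here are Apoa1, Apoa2, Apoa4, Apoa5, Apob, Apoc1, Apoc3, Apoe, Apoh and Apom. They were found by matching the gene name or Entrez number of each array spot to the symbol. That found 13 spots of 9 genes. Apoa2 has 2 spots, and both were named through their RefSeq accession alone, as was 1 further spot of Apoe, so that the 10 genes rest on 16 spots of an array with 26228 named genes.

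RNA from female B6C3F1/Nctr mice was hybridised, with a single dye (Cy3), to 12 Agilent arrays in 4 groups of 3: untreated liver, liver from mice given acrylamide at 0.7 mM, untreated lung, and lung from mice given acrylamide at 0.7 mM. Acrylamide is a small reactive chemical that forms in starchy foods at high heat and is a carcinogen in rodents. The series' design text calls the controls matched in age. The sources used here give neither ages nor how or for how long the mice were exposed. They also do not say whether the 3 arrays of a group are 3 animals, so each p-value reflects only the scatter among these samples, part of which may be technical. The design text and the tissue entry name liver for all 12 arrays, while the titles and source names name lung for 6. Arrays are called by tissue, treatment and title number.

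The defining markers followed the titles. Alb, encoding the plasma protein albumin of hepatocytes, lay at log2 levels from 8.02 to 9.12 on the liver arrays and from 3.05 to 4.22 on the lung arrays. Sftpc, encoding surfactant protein C of alveolar type 2 cells, lay from 8.23 to 8.79 on the lung arrays and from -7.45 to 2.63 on the liver arrays. Within liver it was at 2.63 and -0.65 on acrylamide 27 and 29, and from -7.45 to -5.60 on the others. The club cell marker Scgb1a1 was likewise at 2.35 and 1.29 on these 2 arrays, and from -3.92 to -2.80 on the others. The source of this signal was not tested. A log2 level is the log2 intensity of a spot minus that of the array's 75th percentile, so that 0 is the 75th percentile. That percentile stood at intensities from 294.5 to 621.5 in liver, lowest on acrylamide 30 and highest on acrylamide 29, and from 839.4 to 1375.7 in lung. All 6 liver arrays were on 1 slide and all 6 lung arrays on another, and the effects of slide and tissue cannot be told apart. Liver acrylamide 30 also had the highest background limit of the 12 arrays, at 16.77 against 2.35 to 4.45 on the others, and 34287 spots above it against 46450 to 51099. The precision of every value is limited by the 3 arrays per group.

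Most plasma apolipoproteins are made by hepatocytes. Apob is the scaffold around which the liver builds very low density lipoproteins, and Apoa1 is the main protein of high density lipoproteins. The small exchangeable apolipoproteins move between particles and steer the enzymes and receptors that act on them, and Apoe is the ligand by which receptors take up remnant particles. Apoe is also made outside the liver, by macrophages among other cells. In bulk tissue, a lower level may be fewer cells of a type or less RNA per cell, and these cannot be told apart.

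Apoa1, Apoc3, Apoa4 and Apoa5 lie next to each other on chromosome 9 in the RefSeq table of GRCm38.p6, and Apoc1 and Apoe lie next to each other on chromosome 7. RefSeq's promoter table held windows for 8 of the 10 genes, all but Apoc1 and Apoc3. The 250 bases before the start site are shown for the 3 listed neighbours on chromosome 9. These genes were 1364-fold to 4723-fold lower in untreated lung than in untreated liver. Apob, Apoh and Apom, whose windows are not shown, were 1029-fold to 1441-fold lower. Capitals mark TGTTTGC, a form of the forkhead motif, CAAAGTTCA, a form of the HNF4A motif, CACGTG, an E-box, and TATAAA. Apoa1 is at chr9:46228380-46228629, Apoa4 at chr9:46240594-46240843 and Apoa5 at chr9:46268358-46268607, all on the plus strand of GRCm38.p6.
Apoa1: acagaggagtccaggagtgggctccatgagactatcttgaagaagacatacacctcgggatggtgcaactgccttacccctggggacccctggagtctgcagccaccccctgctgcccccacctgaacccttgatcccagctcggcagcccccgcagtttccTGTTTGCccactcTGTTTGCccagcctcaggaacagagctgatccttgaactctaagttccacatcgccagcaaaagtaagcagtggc
Apoa4: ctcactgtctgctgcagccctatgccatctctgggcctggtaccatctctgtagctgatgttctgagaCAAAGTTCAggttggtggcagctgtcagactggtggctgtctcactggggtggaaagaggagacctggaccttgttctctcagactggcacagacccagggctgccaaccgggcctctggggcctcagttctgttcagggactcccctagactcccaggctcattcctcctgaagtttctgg
Apoa5: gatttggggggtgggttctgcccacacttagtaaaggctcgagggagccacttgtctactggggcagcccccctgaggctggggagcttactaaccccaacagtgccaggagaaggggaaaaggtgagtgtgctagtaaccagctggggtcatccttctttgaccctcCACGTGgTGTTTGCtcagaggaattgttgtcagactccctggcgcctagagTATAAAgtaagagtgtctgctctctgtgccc

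The Apoa1 window holds TGTTTGC at 88 and at 75 bases before the start, and the Apoa5 window holds it at 75 bases, next to CACGTG at 82 bases. The Apoa4 window holds CAAAGTTCA at 182 bases. Over both strands of all 32851 windows, which also take in a few bases after the start, TGTTTGC occurs in 4.30%, CACGTG in 6.02%, TATAAA in 12.4% and CAAAGTTCA in 0.335%. The 8 genes listed have 12 windows between them, so some genes have more than 1 window in which to hold a match. Apoa1, Apoa5 and Apob have TGTTTGC, in 4 of the 12 windows. Apoa2 and Apoh have TGTTTAC, in 2 of the 12, and it is in 3.17% of all windows. A second Apoa5 window, not printed, overlaps the printed one. It holds the same TGTTTGC and CACGTG sites, which lie at 100 and 107 bases before its start. The 4 windows with TGTTTGC therefore count the Apoa5 site more than once. TTGCNNAA, the C/EBP motif (9.56% of windows), is in those of Apoa2 and Apob, AGGTCA (14.02%) is in those of Apoa2 and Apoh, and CAAAGTCCA (0.384%) is in none of them. In the printed windows no matches overlap each other. The motifs were chosen after the windows had been seen, and a match describes letters and not a bound site.

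The first comparison was untreated lung against untreated liver. All 10 genes were lower in lung, by 20.0-fold (Apoe) to 4723-fold (Apoa4), and all 10 passed the adjusted threshold of 0.05. Over all 22441 genes tested, 42.4% passed as lower in lung and 32.0% as higher, so a call alone is common here, whereas a median log2 difference of -10.15 for the 10 genes stands beside -0.27 for all genes. That split of calls depends on the scaling: quantile normalization gave 7988 lower and 8359 higher genes with a median of 0.02 for all genes, and unscaled intensity 3947 lower and 13373 higher with a median of 1.04, while the 10 genes stayed lower and called under both, with medians of -9.64 and -8.84. Adjusted p ran from 8.6e-07 to 3.0e-06 (limma with Benjamini-Hochberg adjustment over all genes tested). No liver array overlapped a lung array for any of the 10, and the brightest spot of each gene was above background on all 12 arrays, lung included.

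**Figure D1:**
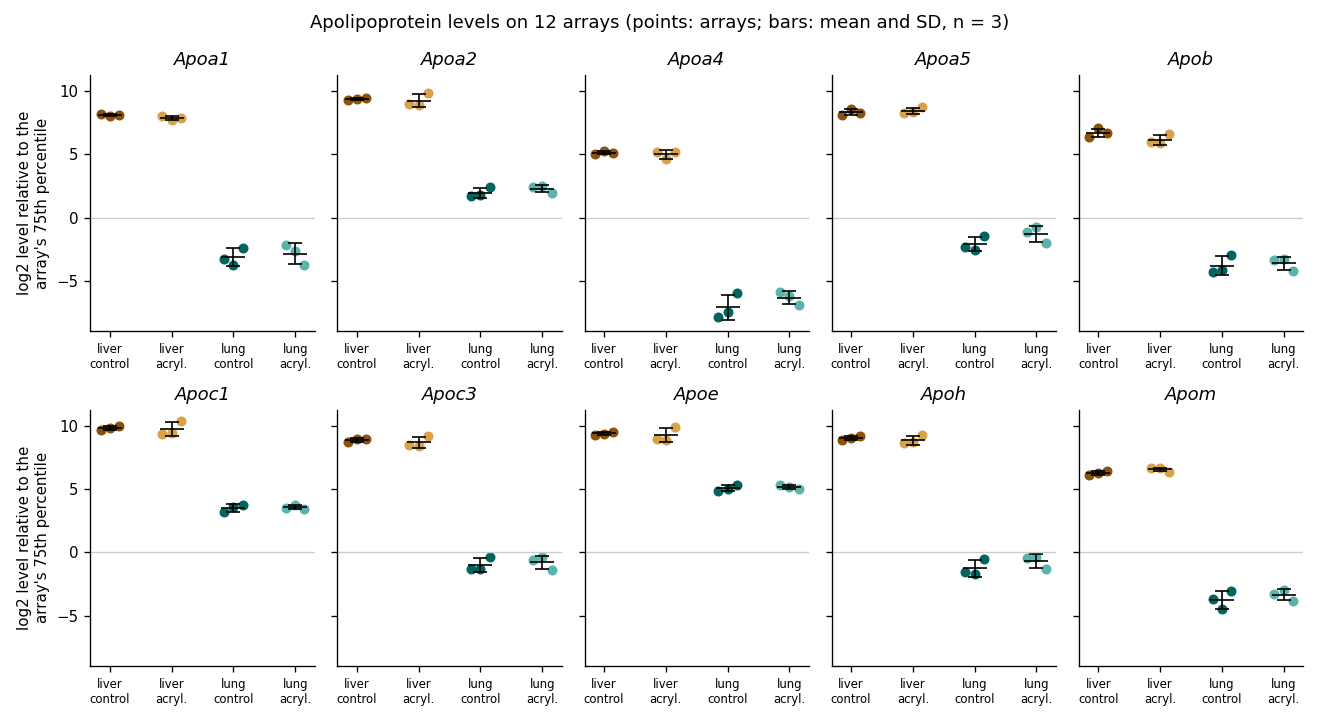
Log2 level (vertical axis, relative to the array's 75th percentile) of the 10 apolipoprotein genes in the 4 groups; points are arrays, bars the mean and SD of 3 arrays. The liver arrays lie above the lung arrays in every panel, and Apoe has the smallest step between the tissues.

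Among the structural proteins of high density lipoproteins, Apoa1 had log2 levels of 8.19, 8.02 and 8.12 on liver controls 1, 3 and 4 and of -3.28, -3.76 and -2.38 on lung controls 4, 5 and 6. The lung arrays were thus more spread than the liver arrays. The difference was -11.25 ± 0.34 (SE), a 2437-fold lower level with a 95% interval from 1369 to 4336. Apoa2, the second protein of these particles, had log2 levels of 9.25, 9.34 and 9.45 in untreated liver and of 1.68, 1.76 and 2.41 in untreated lung. Its difference was smaller, at -7.40 ± 0.22 (SE) or 169-fold, and its other spot gave -9.21 ± 0.28 (SE). The span of Apoa2 overlaps that of Tomm40l in the RefSeq table, and which of them a spot reads was not tested. Apom, which carries sphingosine 1-phosphate on the same particles, differed by -10.01 ± 0.36 (SE), a 1029-fold lower level in lung.

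Apoa4, an intestinal and hepatic protein of triglyceride-rich particles, showed the largest fold among the brightest spots of the 10 genes. Its log2 levels were 5.04, 5.25 and 5.08 in untreated liver and -7.85, -7.44 and -5.96 in untreated lung. In intensity, the lung controls were at 4.8, 6.0 and 19.4, close to background limits of 3.24, 2.35 and 3.03, so that this fold rests on very dim lung spots. The 95% interval of the fold ran from 2143 to 10407. Apoa5, an activator of triglyceride clearance, differed by -10.41 ± 0.31 (SE) on its brighter spot and by -12.95 ± 0.66 (SE) on the dimmer. The dimmer spot was above background on 5 of 6 lung arrays, and its 7894-fold difference exceeded that of Apoa4.

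Apob had log2 levels of 6.39, 7.04 and 6.65 on the liver controls and of -4.31, -4.11 and -2.97 on the lung controls. That is a difference of -10.49 ± 0.38 (SE), and the dimmer Apob spot, above background on 4 of 6 lung arrays, gave -10.18 ± 0.29 (SE). Apoh, known as beta-2-glycoprotein 1 and bound to anionic phospholipid, differed by -10.30 ± 0.34 (SE).

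The small exchangeable proteins differed more from each other. Apoc3, an inhibitor of lipoprotein lipase, differed by -9.88 ± 0.28 (SE) on its brightest spot and by -10.74 ± 0.32 (SE) on a second. The dimmest Apoc3 spot, listed under another transcript of the gene, differed by only -1.81 ± 0.19 (SE), and it was dim in both tissues, with intensities from 263.5 to 574.2 in liver and from 169.4 to 316.2 in lung. Apoc1, which inhibits lipid transfer and remnant uptake, had log2 levels of 9.68, 9.81 and 10.01 in untreated liver and 3.17, 3.56 and 3.76 in untreated lung, a difference of -6.34 ± 0.20 (SE).

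Apoe had log2 levels of 9.28, 9.38 and 9.52 in untreated liver and of 4.83, 5.04 and 5.35 in untreated lung. All 3 lung controls therefore lay well above the array's 75th percentile, as did those of Apoc1 and Apoa2 and of none of the other 7 genes. The difference was -4.32 ± 0.17 (SE), a 20.0-fold lower level with a 95% interval from 14.9 to 26.8, and the second Apoe spot gave -6.04 ± 0.27 (SE). On the brightest spots, the intervals of the Apoe and Apoc1 folds (58.4 to 112 for Apoc1) did not overlap, nor did those of Apoc1 and Apoa2 (116 to 245). This depended on the spot: on the log2 scale the second Apoe spot, at -6.70 to -5.38, overlapped Apoc1 (-6.81 to -5.87), and the second Apoa2 spot, at -9.89 to -8.53, overlapped Apoc3 (-10.55 to -9.20). For the other 7 genes the intervals overlap in part, from Apoc3 (939-fold, 588 to 1502) upward, and neighbours in that order are not separated. These spots differ in brightness, and bright liver spots varied less in intensity than dim ones (see the liver arrays under acrylamide), and the part of this in the folds was not tested.

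The other apolipoprotein genes gave a frame for these values. Of 17 on the array, 14 were lower and 2 higher in lung by the same test, with a median log2 difference of -3.66. The largest differences were those of Apoc4, in the Apoe cluster on chromosome 7 (-11.48 ± 0.19, SE), Saa4 (-11.05 ± 0.56, SE) and Apof (-10.73 ± 0.25, SE). Apod and Apold1 were the 2 higher genes. Apod, a lipocalin made in many tissues, differed by 2.09 ± 0.25 (SE), and Apold1, a protein of blood vessel endothelium, by 1.31 ± 0.39 (SE).

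Genes that assemble and secrete lipoproteins were lower in lung in 16 of 19 cases and higher in 3. They were led by A1cf, a cofactor of Apob mRNA editing (-10.22 ± 0.55, SE), Abcg5, a sterol exporter (-9.08 ± 0.31, SE), and Soat2, which esterifies cholesterol (-7.69 ± 0.26, SE). Receptors and uptake proteins were split, with 10 of 20 lower and 8 higher in lung, and 8 lower and 10 higher on unscaled intensity. The scavenger receptor Olr1 was higher by 7.05 ± 0.24 (SE) and Lrp2, a large endocytic receptor, by 6.74 ± 0.51 (SE).

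Plasma lipases and transfer proteins were lower in lung in 7 of 10 cases and higher in 2. Among the lower genes were Lcat, which esterifies cholesterol in plasma (-8.84 ± 0.26, SE), and Lipc, the hepatic lipase (-7.13 ± 0.37, SE). Among 26 transcription regulators, 20 were lower in lung and 2 higher, and 14 lower and 9 higher on unscaled intensity. Hnf4a (-10.94 ± 0.28, SE) and Creb3l3 (-10.75 ± 0.36, SE), factors of hepatocyte and lipid gene expression, were among the lower ones.

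The genes with the most similar pattern were sought among all 23300 named genes tested, as those with the smallest root mean square difference of log2 level, each gene first centred on its own mean over the 12 arrays. For Apoa1 these were Serpina3k (0.178), Cyp2c67 (0.235) and Mug1 (0.239). For Apoa4 they were Cyp2j5 (0.295), Ugt2b5 (0.352) and Dmgdh (0.369). Apoe, with its smaller step, was closest to Paox (0.152), Kyat1 (0.182) and Pcyt2 (0.189). The likeness describes mainly the liver to lung step, which all of them share.

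The second comparison was acrylamide against control in liver. None of the 10 genes passed the threshold, adjusted or not, and 0 of 21169 genes tested passed the adjusted one (0.0%), with 6.09% passing an unadjusted p of 0.05. Of the 10, 8 had lower and 2 higher mean levels with acrylamide, with a median log2 difference of -0.14 beside -0.02 for all genes. Of the 14 hepatocyte markers, 11 had lower means, also with a median of -0.14, and none passed the adjusted threshold. Their summed level relative to the 75th percentile was 5194 to 8797 with acrylamide and 6271 to 7252 in the controls, and their part in the result was not tested. Under quantile normalization, where Apoa2 turned to 0.02 and the split was 7 to 3, the medians were -0.03 for the 10 genes and -0.03 for all genes, and leaving out 1 array turned the sign of Apoa2, Apoa4, Apoa5, Apoc1 or Apoe. Adjusted p ran from 0.784 to 0.945 (limma).

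Apoa1 was the only one of the 10 genes whose groups did not overlap. Its log2 levels were 8.0, 7.72 and 7.90 on liver acrylamide 27, 29 and 30 and 8.19, 8.02 and 8.12 on the controls, all 3 treated arrays below all 3 controls. The difference was -0.24 ± 0.14 (SE; 95% interval -0.58 to 0.11). Groups without overlap were found for 12.2% of all genes tested, so 1 of 10 is near that share.

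Apob had the largest difference of the 10. Its log2 levels were 6.0, 5.85 and 6.58 with acrylamide and 6.39, 7.04 and 6.65 in the controls, so that arrays 27 and 29 were below every control and array 30 lay between them. The difference was -0.55 ± 0.26 (SE; 95% interval -1.19 to 0.09; unadjusted p = 0.079, adjusted p = 0.784, limma). The dimmer Apob spot gave -0.43 ± 0.22 (SE).

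Apom had log2 levels of 6.65, 6.63 and 6.39 with acrylamide and 6.13, 6.26 and 6.40 in the controls. Arrays 27 and 29 were above every control and array 30 was just below the highest. The difference was 0.29 ± 0.15 (SE; 95% interval -0.07 to 0.66). Apoa4 was at 5.15, 4.61 and 5.21 with acrylamide against 5.04, 5.25 and 5.08, a difference of -0.13 ± 0.20 (SE), and array 29 alone was low.

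**Figure D2:**
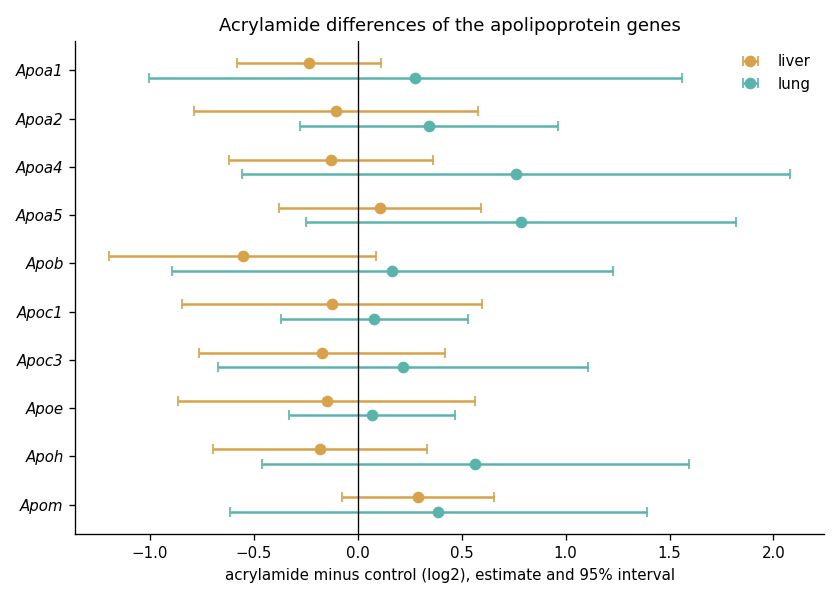
Acrylamide minus control difference on the log2 scale (horizontal axis) of each apolipoprotein gene in liver and lung, with 95% intervals from limma and 3 arrays per group. Every interval includes 0, and the lung estimates are all above 0.

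Apoc1, Apoe, Apoa2, Apoc3 and Apoh were among the brightest spots in liver, and shared the same highest array and the same pair of lowest arrays. Apoc1 had log2 levels of 9.39, 9.39 and 10.36 on liver acrylamide 27, 29 and 30 and 9.68, 9.81 and 10.01 on controls 1, 3 and 4. Apoe had 8.98, 8.87 and 9.89 with acrylamide and 9.28, 9.38 and 9.52 in the controls. Apoa2 had 8.98, 8.89 and 9.86 with acrylamide and 9.25, 9.34 and 9.45 in the controls. In each, array 30 was the highest of 6 and arrays 27 and 29 the lowest. Apoc3 (8.46, 8.44 and 9.20 against 8.71, 8.95 and 8.96) and Apoh (8.63, 8.69 and 9.24 against 8.89, 9.01 and 9.21) had the same highest array and the same lowest pair. Apob, a dimmer member, had the same lowest pair, so that 6 of the 10 genes had it, but its highest array was control 3. Arrays 27 and 29 were the 2 lowest in 17.1% of all genes tested and in 11 of 14 hepatocyte markers. Array 30 was the highest in 23.9% and in 10 of 14. The 5 differences lay between -0.18 and -0.10, with standard errors from 0.21 to 0.30.

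These arrays followed the order of the array's overall brightness, turned round. The 75th percentile differed 2.11-fold between the liver arrays, but the intensity of Apoc1 differed only 1.13-fold (386607 to 437519), that of Apoa2 1.14-fold (273663 to 312773) and that of Apoe 1.12-fold (279716 to 313045). Among the dimmer members, Apom varied 2.52-fold and Apoa1 2.25-fold in intensity, and both were lowest on array 30. Apob (2.09-fold) and Apoa4 (2.01-fold) were also lowest there. Apob, though, stood at 39613 and 35940 on acrylamide 27 and 29, the brightest arrays, against 40539 to 58775 in the controls. Across the array, 49 genes had a mean liver intensity of at least 200000, these 5 members among them. All 49, each read from its brightest spot, were lower with acrylamide, with a median log2 difference of -0.14. Their median log2 level deviated from the liver mean by -0.30 and -0.35 on acrylamide 27 and 29 and by 0.41 on acrylamide 30. In log2 intensity, before scaling, the same genes deviated by 0.11, 0.06 and -0.25, against 0.37, 0.38 and -0.63 for the 14369 genes under 1000. Other bright spots of members are not in this class. The second Apoe spot (174100 to 279424 in liver) varied 1.60-fold, was lowest on control 3, and differed by 0.14 ± 0.23 (SE). The second Apoa2 spot (254335 to 292914) varied 1.15-fold and differed by -0.19 ± 0.28 (SE). The flag column of the files used here is empty, so saturation could not be checked, and the part of spot brightness in the 5 differences was not tested.

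**Figure D3:**
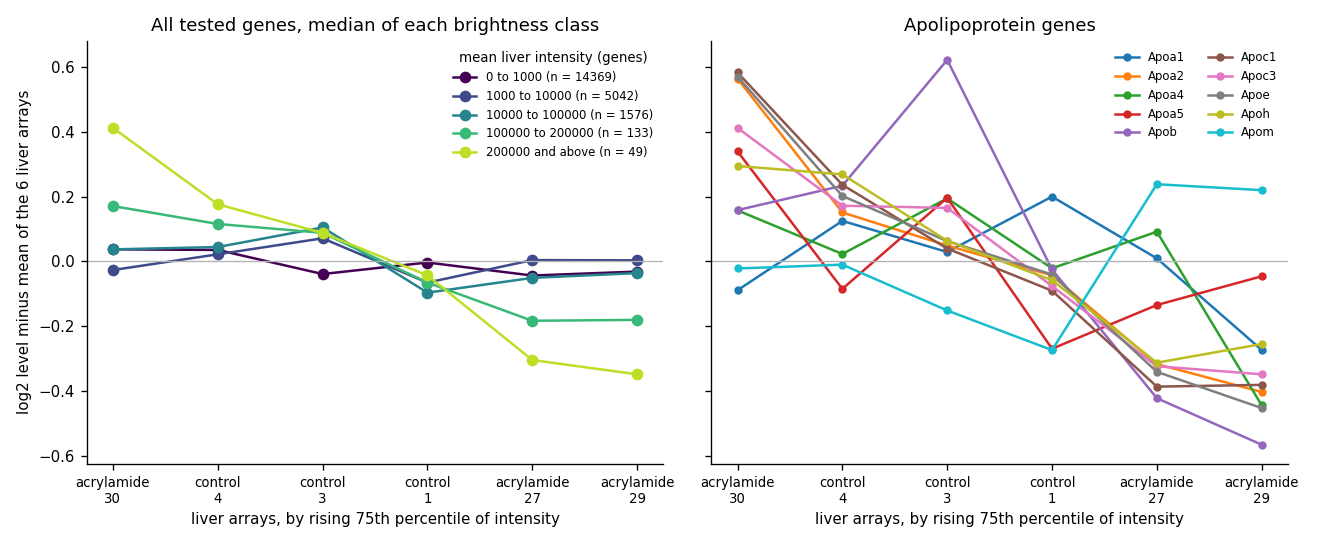
Deviation of the log2 level from the mean of the 6 liver arrays (vertical axis), arrays in order of rising 75th percentile of intensity; on the left the median of all tested genes in 5 classes of mean intensity, on the right the 10 apolipoprotein genes. The class of 200000 and above runs from 0.41 on acrylamide 30 to -0.35 on acrylamide 29, and Apoc1, Apoe, Apoa2, Apoc3 and Apoh run the same way, whereas Apom and Apoa1 do not.

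The 2 spots of Apoa5 both had higher means with acrylamide in liver, but only the dimmer one separated the groups. The difference between the spots was not tested. On the brighter spot the log2 levels were 8.23, 8.32 and 8.71 with acrylamide and 8.10, 8.57 and 8.28 in the controls, which overlap, with a difference of 0.11 ± 0.20 (SE). On the dimmer spot they were 5.80, 5.89 and 5.92 with acrylamide and 5.26, 5.29 and 5.24 in the controls. The dimmer spot thus separated the groups by a gap far above the spread within them (SD 0.061 and 0.022, n = 3). Its difference was 0.61 ± 0.13 (SE; 95% interval 0.29 to 0.93), a 1.53-fold higher level, with an unadjusted p of 0.0034 and an adjusted p of 0.736 over every spot (limma), so it did not pass. This spot was singled out after its values had been seen.

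**Figure D4:**
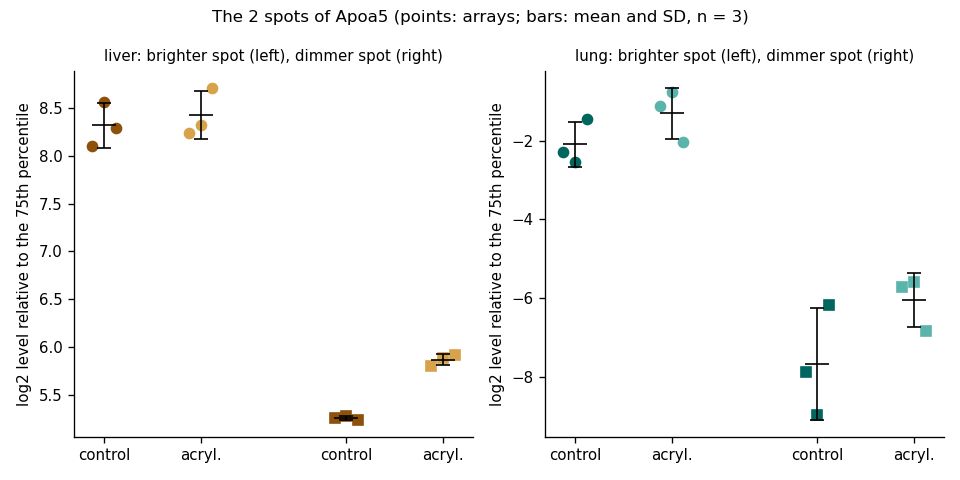
Log2 level of the brighter and the dimmer Apoa5 spot in liver and lung, for the untreated and acrylamide arrays (points: arrays, bars: mean and SD, n = 3). In liver the brighter spot overlaps between the groups and the dimmer spot lies at 5.24 to 5.29 in the controls and 5.80 to 5.92 with acrylamide.

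None of the pathway genes passed the adjusted threshold in liver. Among the assembly and secretion genes, A1cf (-0.62 ± 0.37, SE), Dgat1, which makes triglyceride (0.52 ± 0.18, SE), and the Apob mRNA editing enzyme Apobec1 (-0.45 ± 0.18, SE) had the largest differences. Dgat1 and Apobec1 did not overlap between the groups, and both had an unadjusted p under 0.05 (0.026 and 0.0495). Among receptors they were Lrp2 (0.63 ± 0.63, SE), Msr1 (0.39 ± 0.24, SE) and Mylip (0.34 ± 0.21, SE).

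Lpl, the lipase of adipose tissue and muscle (-0.61 ± 0.33, SE), Lipc (0.55 ± 0.22, SE; unadjusted p = 0.048) and Angptl8 (-0.36 ± 0.48, SE) led the lipases and their regulators. The regulators of transcription were led by Nr0b2 (-0.78 ± 0.50, SE), the clock gene Nr1d1 (0.75 ± 0.41, SE) and Foxa1 (0.40 ± 0.26, SE). The other apolipoproteins were led by the acute-phase genes Saa2 (-0.60 ± 0.52, SE) and Saa1 (-0.24 ± 0.55, SE), with Apold1 (0.50 ± 0.54, SE).

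Markers of other cells also differed in mean between the liver groups, though none passed the adjusted threshold. Of these, 2 of 12 macrophage, 2 of 9 stellate or fibroblast, 1 of 5 club cell and 1 of 9 alveolar type 2 markers had an unadjusted p under 0.05 (limma). The share over all 21169 genes tested was 6.09%, and with lists this short such counts cannot be told from it. All 12 macrophage markers had higher means with acrylamide, with a median log2 difference of 0.44, and their summed level relative to the 75th percentile was 90.6 to 102 with acrylamide and 63.5 to 85.2 in the controls. All 9 markers of stellate cells and fibroblasts had lower means, with a median of -0.24. Adipocyte markers, 4 of 7 with lower means, had a median of -0.53. Their median deviation from the liver mean was 1.32, -0.45 and 0.14 on controls 1, 3 and 4. It was -0.70, -0.22 and -0.11 on acrylamide 27, 29 and 30, so control 1 alone stood far apart. Between 3 and 7 of the 7 were above background on a liver array. Alveolar type 2 markers, 6 of the 9 tested with higher means, had a median of 0.34. Over all 10 of these markers, the untested one included, the median deviation from the liver mean was 0.37 on both acrylamide 27 and 29. It was -0.19 on acrylamide 30, against -0.52 to 0.08 in the controls. The club cell markers of lung airways, 4 of 5 with higher means, had a median deviation from the liver mean of 2.03 and 1.94 on acrylamide 27 and 29 but -1.17 on acrylamide 30, within the range of the controls, -1.21 to -0.57. Since macrophages express Apoe, these values stand beside its difference of -0.15 ± 0.29 (SE), and their part in it was not tested. The second Apoe spot gave 0.14 ± 0.23 (SE), and the first gave 0.10 within slide row 1, both in the other direction.

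The third comparison was acrylamide against control in lung. The mean level of all 10 genes was higher with acrylamide, but none passed and no gene's groups were free of overlap. Over all 22252 genes tested, 0.0% passed the adjusted threshold, 4.97% an unadjusted p of 0.05, and 10.9% had no overlap. The median log2 difference was 0.31 for the 10 genes and -0.01 for all genes. All 10 also stayed above 0 under the other scalings, with medians from 0.27 to 0.28, but leaving out 1 array turned the sign of Apoa1, Apob, Apoc1 or Apoe. The adjusted p was 0.999 for each of the 10 (limma).

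Apoa5 and Apoa4 had the largest differences. Apoa5 had log2 levels of -1.13, -0.77 and -2.03 on lung acrylamide 28, 29 and 30 and of -2.29, -2.55 and -1.45 on controls 4, 5 and 6, a difference of 0.79 ± 0.42 (SE). Apoa4 had -5.88, -6.19 and -6.89 with acrylamide and -7.85, -7.44 and -5.96 in the controls, a difference of 0.76 ± 0.54 (SE; 95% interval -0.56 to 2.08). In both, acrylamide 30 lay among the controls and control 6 among the treated arrays. The dimmer Apoa5 spot differed by 1.63 ± 0.74 (SE; unadjusted p = 0.069, limma over every spot), and its groups overlapped. It was close to background in lung, at intensities from 2.1 to 23.3, and above it on 5 of 6 lung arrays.

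Apoh was at -0.42, -0.35 and -1.33 with acrylamide and at -1.55, -1.74 and -0.50 in the controls, a difference of 0.57 ± 0.42 (SE). Apom (0.39 ± 0.41, SE), Apoa1 (0.28 ± 0.52, SE), Apoc3 (0.22 ± 0.36, SE) and Apob (0.17 ± 0.43, SE) followed with wider errors than differences. Apoa2, at 2.44, 2.5 and 1.95 with acrylamide and 1.68, 1.76 and 2.41 in the controls, differed by 0.34 ± 0.25 (SE). For the 2 genes with the smallest step between the tissues, the intervals were narrower: Apoe differed by 0.07 ± 0.16 (SE; 95% interval -0.33 to 0.47) and Apoc1 by 0.08 ± 0.18 (SE; -0.37 to 0.53). Apoe lay at 5.28, 5.14 and 5.0 with acrylamide and at 4.83, 5.04 and 5.35 in the controls. The dimmest Apoc3 spot went the other way, at -0.36 ± 0.11 (SE) without overlap (unadjusted p = 0.019, adjusted p = 0.99998 over every spot, limma).

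The lung arrays had a common order across these genes. Lung acrylamide 28 and 29 and control 6 were the 3 highest arrays for 9 of the 10 genes, the exception being Apoc1, an order found in 4.61% of all genes tested and in 10 of 14 hepatocyte markers. On acrylamide 28, 29 and 30 the 10 genes deviated from their lung mean by a median of 0.33, 0.46 and -0.30, and on controls 4, 5 and 6 by -0.42, -0.59 and 0.49. In the same order of arrays, the hepatocyte markers gave 0.44, 0.45 and -0.40, and -0.32, -0.59 and 0.35. Of these markers, 12 of 14 had higher means with acrylamide, with a median of 0.42. All 14 were above background on every lung array, Alb among them. Their summed level relative to the 75th percentile was 262 to 360 with acrylamide and 304 to 316 in the lung controls. On the liver arrays it was 5194 to 8797 with acrylamide and 6271 to 7252 in the controls. In lung this sum did not follow the order of the medians, with control 6 at 304.0, below controls 4 (304.4) and 5 (315.9). Macrophage markers had higher means in 10 of 12 cases, with a median of 0.28 and a summed level of 64.2 to 77.6 with acrylamide against 46.5 to 70.1, and all 10 alveolar type 2 markers had lower means, with a median of -0.09 and 878 to 1129 against 1005 to 1091. Adipocyte markers, 4 of 7 with higher means, had a median of 0.02. Their summed level was 7.87 on control 6 and 13.1 on acrylamide 30, and 27.4 to 38.4 on the other lung arrays. None of these markers passed the adjusted threshold, and their part in the lung differences of the apolipoprotein genes was not tested.

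**Figure D5:**
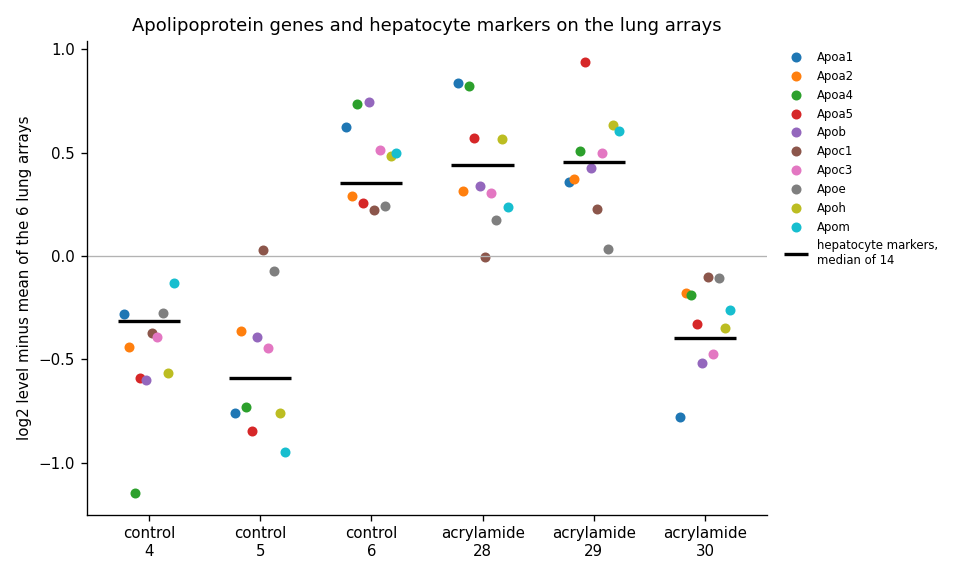
Deviation of the log2 level from the mean of the 6 lung arrays (vertical axis) for each apolipoprotein gene (coloured points) and the median of 14 hepatocyte markers (black bars), by array. Points and bars lie above 0 together on control 6 and acrylamide 28 and 29, apart from Apoc1 on acrylamide 28, and at or below 0 on the others, apart from Apoc1 on control 5.

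The genes whose brightest spots lay above the 75th percentile in lung varied less there, without a test of the difference. For Apoa2, Apoc1 and Apoe the median deviation ran from -0.37 to 0.24 over the 6 lung arrays, and for the other 7 genes from -0.76 to 0.56. In liver the same 3 genes ran from -0.40 to 0.57 and the other 7 from -0.27 to 0.17, the wider range being that of the 3. The second Apoa2 spot lay on both sides of the 75th percentile in lung (-0.31 to 1.04).

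None of the pathway genes passed the adjusted threshold in lung. Nr1d1 had the smallest unadjusted p of the 5 lists, with log2 levels averaging -0.84 ± 0.03 with acrylamide and -2.05 ± 0.43 in the controls (SD, n = 3), a difference of 1.21 ± 0.22 (SE; unadjusted p = 0.0016, adjusted p = 0.959, limma). Onecut1, from a very dim spot, differed by -1.71 ± 1.1 (SE). Among plasma factors Angptl4 (0.68 ± 0.43, SE) and Lcat (0.63 ± 0.25, SE) led, and 9 of the 10 genes of that list had higher means.

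Mylip, which marks the LDL receptor for degradation, had the largest difference among the receptor genes (-0.50 ± 0.17, SE; unadjusted p = 0.026), without overlap, followed by Amn (-0.45 ± 0.49, SE) and Msr1 (0.35 ± 0.22, SE). Dgat2 (0.48 ± 0.40, SE), A1cf (-0.28 ± 0.74, SE) and Apobec1 (-0.24 ± 0.16, SE) led the assembly genes. Saa4 (0.73 ± 0.98, SE), Apold1 (0.50 ± 0.25, SE) and Apol8 (0.46 ± 0.21, SE) led the other apolipoproteins.

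The difference between the tissues in the acrylamide effect was tested directly as an interaction over all 12 arrays. It was above 0, a higher effect in lung, for all 10 genes, from 0.10 (Apom, which turned to -0.05 under quantile normalization and -0.04 on unscaled intensity) to 0.89 (Apoa4), and passed for none, where 0.0% of 23300 genes passed the adjusted threshold and 4.44% an unadjusted p of 0.05. The adjusted p was 0.994 to 0.995 (limma). The interval for Apoa4 ran from -0.49 to 2.27, so neither a difference between the tissues nor its absence can be read from these arrays. Without liver acrylamide 30 the interaction gave 136 genes past the threshold, none of them among the 10.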

How the data were processed

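Each of the 12 deposited files lists an unlogged Cy3 intensity for 62976 spots. Agilent Feature Extraction 10.7 produced it, per the submitters' processing notes, which do not state background subtraction. The authors' deposited series matrix, whose values are these intensities times 1 factor per array, was used as an alternative. After dropping 1319 control spots, the log2 of each array's 75th percentile was subtracted from log2 intensity. A spot above the 95th percentile of its array's 308 negative controls counted as above background, and was tested where this held on at least 3 arrays of the fit. A gene was read from its brightest spot over the 12 arrays. Names came from the files, or from RefSeq (GRCm38.p6) by Entrez number for 38054 spots and by accession for 715.

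limma 3.58.1 (lmFit and eBayes, R 4.3.3) was fitted within each tissue, for untreated lung against liver, and for the interaction, with Benjamini-Hochberg adjustment over all genes tested and a threshold of 0.05. It was tested on simulated data. Named pathway genes are the 3 of each list with the largest difference in each comparison; some of these are not reported here. The members and lists were chosen with earlier results of these data known. Alternatives were another normalization, unscaled values, other spots, arrays left out, and slide row and title number as blocks.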

Additional observations from a re-analysis of the deposited data

How the results depend on the processing

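No apolipoprotein gene passed in either acrylamide comparison or in the interaction under any alternative run; the lowest adjusted p (limma) were 0.231 in liver, 0.690 in lung and 0.408 for the interaction, and all 10 passed between the tissues under every one. Unscaled values and testing every spot were chosen after seeing the data. Counts of genes past the threshold were 0 in liver, but 2 in 1 fit of all 12 arrays and 0 to 1 with an array left out. In lung the count was 0, but 1 unscaled. Between the tissues it was 16699 genes, and 34703 where every spot was tested, which counts spots and not genes. For the interaction it was 0, but 0 to 136 with an array left out. In liver, Apoa2 reversed to 0.0212 under quantile normalization and 0.0016 unscaled, and Apoe to 0.14 on its second spot; within slide row 1 Apoa2 was 0.12, Apoa4 0.0382, Apoc1 0.12 and Apoe 0.10. In lung, Apoc1 was -0.0806 within slide row 1. For the interaction, Apom was -0.0464 under quantile normalization and -0.0416 unscaled. Leaving out 1 array in turn gave, in liver, Apoa2 -0.41 to 0.0713, Apoa4 -0.24 to 0.0594, Apoa5 -0.0376 to 0.23, Apoc1 -0.45 to 0.0391 and Apoe -0.47 to 0.0402; in lung, Apoa1 -0.0735 to 0.74, Apob -0.0921 to 0.58, Apoc1 -0.0853 to 0.21 and Apoe -0.0508 to 0.21; and Apom -0.28 to 0.44 for the interaction. The cause was not tested. Liver slide row 2 holds 1 array of each group and gave no test. Title numbers 4, 29 and 30 recur in both tissues, but same-numbered arrays did not deviate together (r = 0.012, -0.021 and -0.156 over 23300 genes). With the title number as a replicate block, the interaction had 0 genes past the threshold and the tissue difference over all 12 arrays had 18925.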
